A study of Homo sapiens with 18 samples.

Results

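The genes described here are 9 lung and foregut lineage genes, chosen by symbol from a table of 19849 genes: the transcription factors NKX2-1, FOXA1, FOXA2, GATA6 and HNF4A, and the secreted products NAPSA, SFTPB, SFTPC and SFTPD. All 9 were in the table, each with 1 probe set. Their mRNA was measured on 18 Affymetrix arrays in 3 established lines of human lung cancer, namely HCC827, NCI-H358 and A549. Each line was measured as parental cells (labelled Parental) and as mesenchymal derivatives (labelled EMT) made by culture in 2 ng/ml TGFβ for 3 weeks, so there were 6 groups of 3 arrays. The TGFβ-containing medium was replaced with fresh medium lacking it on the day before lysis, and all cells were grown in RPMI medium with 10% FBS and 4 mM glutamine. The methods give a shorter TGFβ culture for A549 than for the other lines, while the sample labels give 3 weeks for all, so the length of exposure and the line cannot be told apart. Each line is 1 tumour-derived line, and the 3 arrays of a group are described as separate samples generated at the same time, so p-values measure the spread between such samples.

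NKX2-1 is a homeodomain factor that specifies the lung field of the foregut and keeps alveolar type 2 cells, the surfactant-making cells of the alveolus, in their state. It acts with the forkhead factors FOXA1 and FOXA2, which open chromatin over endodermal genes, and with the zinc finger factor GATA6, and these factors bind the promoters of surfactant genes and of NAPSA. HNF4A is a nuclear receptor of liver, stomach and intestine that is normally silent in lung epithelium. Epithelial-mesenchymal transition (EMT) is the loss of epithelial adhesion and gene expression with a gain of mesenchymal genes, and TGFβ is a standard inducer of it in culture.

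Values are log2 expression levels after robust multi-array averaging (RMA), and changes are differences of log2 levels, mesenchymal minus parental. A level of 1 probe set cannot be set against that of another, so levels are compared between groups for the same gene only. A gene "rose" or "fell" where limma's adjusted p was under 0.05 over all 19849 genes. A stricter pair, called "the study thresholds", is an adjusted p under 1e-05 with a fold change over 5. The study used this pair to pick metabolism-associated genes that changed in all 3 lines, and here it is applied to any gene in each line alone. Array medians lay between 6.31 and 6.47 and lower quartiles between 4.60 and 4.70, and arrays of a group correlated at 0.994 or more across genes. The labelled transition was visible in 8 of 8 EMT genes in every line: the epithelial adhesion genes CDH1 and EPCAM fell, and CDH2, VIM, FN1, ZEB1, SNAI1 and SNAI2 rose. In the order A549, HCC827 and NCI-H358, the change of CDH1, which encodes E-cadherin, was -5.81, -2.95 and -3.94, and that of EPCAM was -3.03, -2.69 and -2.92. In the same order FN1, which encodes fibronectin, rose by 3.11, 3.98 and 1.99, and ZEB1, a repressor of epithelial genes, rose by 0.79, 4.18 and 3.66. Parental ZEB1 means were 9.33, 6.02 and 6.13 and mesenchymal means 10.12, 10.20 and 9.80, so A549 started from a higher level.

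The lineage genes did not move as 1 block. In A549, 2 of 9 rose (FOXA1 and GATA6) and 1 fell (FOXA2), where 16.6% of all genes rose and 26.8% fell. In HCC827, 0 of 9 rose and 3 fell (FOXA1, FOXA2 and NAPSA), where 20.8% of all genes rose and 25.0% fell. In NCI-H358, 0 of 9 rose and 3 fell (NKX2-1, FOXA1 and FOXA2), where 21.5% of all genes rose and 19.8% fell. With 9 genes, these counts lie near what the shares of all genes would give, so the counts alone set the lineage genes apart in no line. Over the 9 genes the median change was 0.12, -0.071 and -0.10 in A549, HCC827 and NCI-H358, beside -0.021, 0.0051 and 0.015 over all genes. FOXA2 was the only one of the 9 that fell in all 3 lines. The study thresholds were passed by 0 of 9 genes in A549, by NAPSA in HCC827 and by FOXA2 in NCI-H358, where 1.90%, 2.95% and 2.17% of all genes passed them.

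**Figure D1:**
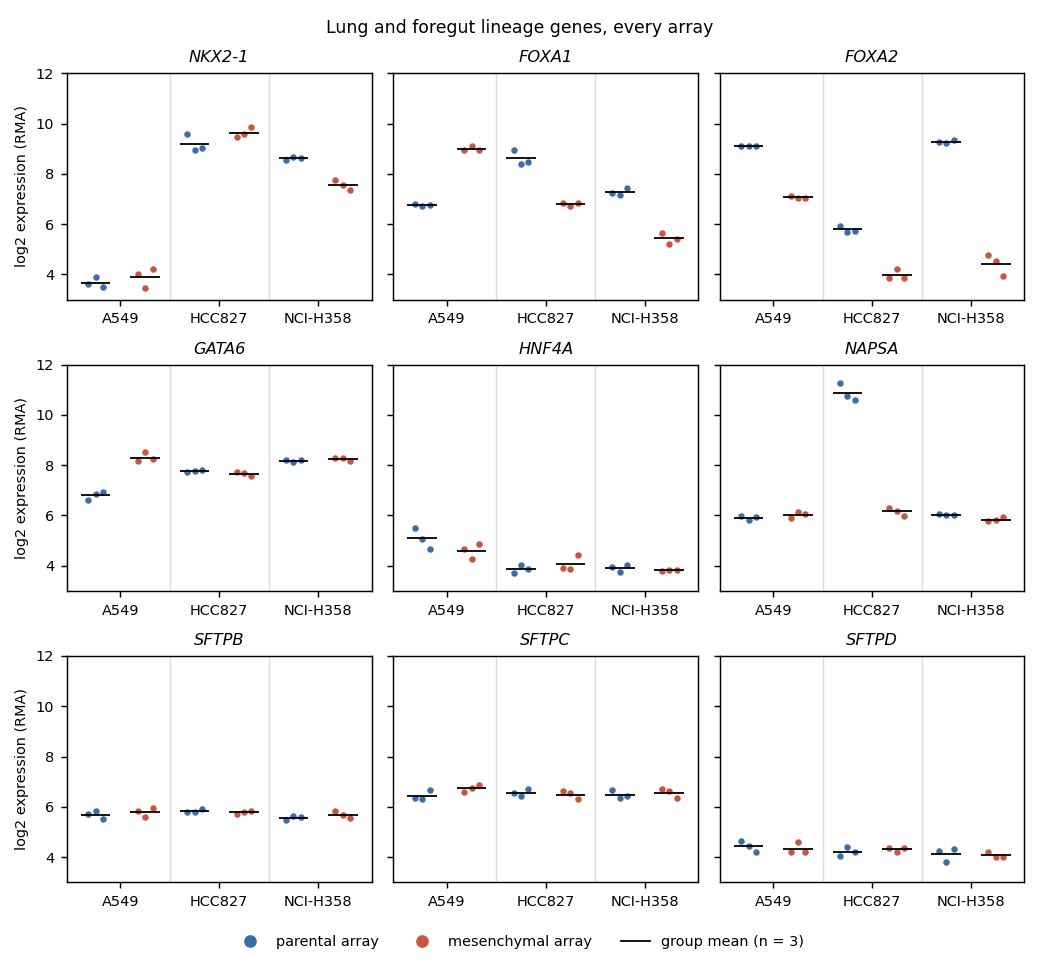
Log2 expression of the 9 lineage genes on every array, 1 panel per gene, with parental arrays in blue, mesenchymal arrays in red and the mean of 3 arrays as a bar. NKX2-1 lies between 3.47 and 4.21 in A549 in both states, NAPSA stands apart only in parental HCC827, and the 3 surfactant genes lie in a narrow band in all 6 groups.

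NKX2-1 (Entrez 7080, probe set 211024_s_at) separated the lines far more than it separated the states. The probe set's suffix marks it as matching more than 1 transcript, and the signal of such transcripts was not separated. Parental A549 arrays read 3.61, 3.90 and 3.51 and mesenchymal A549 arrays 4.02, 3.47 and 4.21, all below the lower quartile of their arrays. Parental HCC827 arrays read 9.58, 8.95 and 9.02, and mesenchymal HCC827 arrays 9.46, 9.60 and 9.85. Parental NCI-H358 arrays read 8.54, 8.69 and 8.63, and mesenchymal NCI-H358 arrays 7.75, 7.55 and 7.37. The A549 arrays of either state lay below every array of the other lines, and only in NCI-H358 did the 2 states not overlap. In NCI-H358 NKX2-1 fell from 8.62 ± 0.076 to 7.56 ± 0.19 (mean ± SD, n = 3), a change of -1.06 (SE 0.19, 2.09-fold lower, limma adjusted p = 0.000154). The change in HCC827 was 0.46 (SE 0.19, 95% interval 0.06 to 0.85, adjusted p = 0.0559) and that in A549 was 0.23 (SE 0.19, 95% interval -0.17 to 0.62, adjusted p = 0.362). The HCC827 value lay close to the threshold. The first parental HCC827 array was the highest of its group at 9.58, and without it the change was 0.65 with an adjusted p of 0.00766. Without the first mesenchymal HCC827 array it was 0.54 (adjusted p = 0.047), and leaving out the second or the third mesenchymal A549 array, which only alters the shared spread, gave adjusted p = 0.0258 and 0.0433. The NCI-H358 change was more negative than that in HCC827 by 1.52 (log2 difference of changes -1.52, SE 0.26, adjusted p = 0.000182) and than that in A549 (difference of changes -1.29, adjusted p = 0.000693). NKX2-1 was already low in parental A549, so these arrays could hardly have shown a fall there, and the difference from A549 has that limit.

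Among parental cells, NKX2-1 was 45.5-fold higher in HCC827 than in A549 (log2 difference 5.51, adjusted p = 7.79e-14) and the excess of NCI-H358 over A549 was 30.7-fold (log2 difference 4.94, adjusted p = 2.67e-13). NCI-H358 was lower than HCC827 by a log2 difference of -0.57 in the parental state (adjusted p = 0.016) and of -2.08, or 4.24-fold, in the mesenchymal state (adjusted p = 3.79e-08). In mesenchymal NCI-H358 cells, NKX2-1 was still 12.6-fold above its level in mesenchymal A549. From the highest group mean to the lowest, the order was mesenchymal and parental HCC827, which overlapped, then parental NCI-H358, mesenchymal NCI-H358, and last mesenchymal and parental A549, which overlapped.

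The genes next to NKX2-1 on chromosome 14, which were named after their values were seen, had part of the same pattern. SFTA3, annotated as a noncoding gene in RefSeq and lying on one side of NKX2-1, read 3.49, 3.25 and 3.31 in parental and 2.94, 2.65 and 3.17 in mesenchymal A549. It read 10.74, 10.06 and 10.06 in parental and 11.09, 11.07 and 10.89 in mesenchymal HCC827. In NCI-H358 it read 10.17, 10.07 and 10.08 in parental and 10.15, 10.03 and 10.11 in mesenchymal cells. SFTA3 was thus low in A549 alone, as NKX2-1 was, but it did not share the fall in NCI-H358, where its change was -0.01 (adjusted p = 0.975). SFTA3 rose by 0.73 in HCC827 (SE 0.15, adjusted p = 0.00069), and in A549 it fell by 0.43 (adjusted p = 0.0304). NKX2-1-AS1, the antisense gene on the other side, had A549 means of 3.90 (parental) and 4.09 (mesenchymal), HCC827 means of 6.37 and 6.02, and NCI-H358 means of 5.03 and 5.08. Its change did not pass in any line (adjusted p = 0.343, 0.0737 and 0.847).

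FOXA1 (Entrez 3169, probe set 204667_at) moved up in 1 line and down in the others. Parental A549 arrays read 6.80, 6.73 and 6.76 and mesenchymal A549 arrays 8.95, 9.09 and 8.97. Parental HCC827 arrays read 8.97, 8.40 and 8.47, against 6.84, 6.72 and 6.84 in mesenchymal HCC827. Parental NCI-H358 arrays read 7.24, 7.17 and 7.42, against 5.65, 5.23 and 5.41 in mesenchymal NCI-H358. The states did not overlap in any line, and mesenchymal A549 reached the level of parental HCC827 while mesenchymal HCC827 reached that of parental A549. FOXA1 rose by 2.24 in A549 (SE 0.13, 4.72-fold, adjusted p = 2.24e-10). It fell in HCC827, with a change of -1.82 (SE 0.13, 3.52-fold lower, adjusted p = 2.37e-09), and likewise in NCI-H358, with a change of -1.85 (SE 0.13, 3.60-fold lower, adjusted p = 2.41e-09). The change in A549 differed from that in HCC827 and from that in NCI-H358 (differences of changes -4.06 and -4.09, each other line minus A549, adjusted p = 1.62e-11 and 1.35e-11, with the A549 arrays shared by both). The changes in HCC827 and NCI-H358 differed by -0.030 (95% interval -0.41 to 0.35, adjusted p = 0.924).

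The order of the lines in FOXA1 turned with the state. Parental HCC827 was above parental A549 by 1.85 (3.60-fold) and parental NCI-H358 above it by 0.51 (adjusted p = 0.00207), whereas mesenchymal HCC827 was below mesenchymal A549 (log2 difference -2.21, 4.61-fold) and mesenchymal NCI-H358 was 11.9-fold below it (log2 difference -3.57, adjusted p = 1.36e-13).

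FOXA2 (Entrez 3170, probe set 40284_at), the paralog of FOXA1, fell in all 3 lines. Parental A549 arrays read 9.09, 9.09 and 9.11 and mesenchymal A549 arrays 7.13, 7.03 and 7.04. Parental HCC827 arrays read 5.94, 5.70 and 5.74, and mesenchymal HCC827 arrays 3.84, 4.23 and 3.87. Parental NCI-H358 arrays read 9.26, 9.21 and 9.33, and mesenchymal NCI-H358 arrays 4.75, 4.51 and 3.95. No parental array overlapped with a mesenchymal array of its line, and mesenchymal NCI-H358 overlapped with mesenchymal HCC827, the lowest group. The FOXA2 change was -2.03 in A549 (SE 0.15, 4.09-fold lower, adjusted p = 5.66e-09) and -1.81 in HCC827 (SE 0.15, 3.51-fold lower, adjusted p = 1.73e-08). For NCI-H358 it was -4.86 (SE 0.15, 29.0-fold lower, adjusted p = 8.1e-14). The fall in NCI-H358 was steeper than in A549 (difference of changes -2.83, adjusted p = 9.45e-09) and than in HCC827 (-3.05, adjusted p = 5.67e-09), and that in HCC827 differed from that in A549 by 0.22 (95% interval -0.22 to 0.66, adjusted p = 0.454). HCC827 started from a parental mean of 5.79 and ended below the lower quartile of its arrays, so a fall as large as that in NCI-H358 could not have been seen in it. In A549 the 2 forkhead paralogs moved in opposite directions, since FOXA1 rose and FOXA2 fell, while in HCC827 and NCI-H358 both fell.

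Parental A549 and parental NCI-H358 had FOXA2 levels of 9.10 ± 0.011 and 9.27 ± 0.058 (difference 0.17, adjusted p = 0.357), and parental HCC827 was 9.87-fold below the former (log2 difference -3.30) and 11.1-fold below the latter. In the mesenchymal state A549 had the highest mean at 7.06 ± 0.054, which was 8.48-fold above mesenchymal HCC827 and 6.31-fold above mesenchymal NCI-H358.

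GATA6 (Entrez 2627, probe set 210002_at) rose in A549 and stayed within narrow ranges elsewhere. Parental A549 arrays read 6.62, 6.87 and 6.94 and mesenchymal A549 arrays 8.15, 8.51 and 8.26. HCC827 arrays read 7.71, 7.78 and 7.80 in the parental and 7.71, 7.67 and 7.56 in the mesenchymal state. NCI-H358 arrays read 8.22, 8.13 and 8.19 in the parental and 8.27, 8.29 and 8.18 in the mesenchymal state. Parental A549 was the lowest of the 6 groups, and mesenchymal A549 overlapped with both NCI-H358 groups. GATA6 rose by 1.50 in A549 (SE 0.092, 2.82-fold, adjusted p = 6.56e-10). The changes in HCC827 and NCI-H358 were -0.12 (95% interval -0.31 to 0.08, adjusted p = 0.332) and 0.066 (95% interval -0.13 to 0.26, adjusted p = 0.64). The change in A549 differed from that in HCC827 (difference of changes, HCC827 minus A549, -1.62, adjusted p = 2.69e-08) and from that in NCI-H358 (NCI-H358 minus A549, -1.43, adjusted p = 1.24e-07). As for FOXA1, the parental order of A549 against HCC827 turned with the state: HCC827 was above A549 by 0.96 before (adjusted p = 8.15e-08) and below it by a log2 difference of -0.66 after the transition (adjusted p = 8.23e-06).

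HNF4A (Entrez 3172, probe set 230914_at) was low on all arrays and highest in parental A549. Parental A549 arrays read 5.52, 5.08 and 4.65 and mesenchymal A549 arrays 4.66, 4.27 and 4.88. In HCC827 the arrays read 3.73, 4.03 and 3.88 in parental and 3.89, 3.87 and 4.42 in mesenchymal cells. In NCI-H358 they read 3.96, 3.76 and 4.03 in parental and 3.79, 3.83 and 3.82 in mesenchymal cells. Every group overlapped with its neighbour in the order of means, and no change passed. The A549 change was -0.48 (SE 0.19, 95% interval -0.89 to -0.07, adjusted p = 0.0545), and those of HCC827 and NCI-H358 were 0.18 and -0.10 (adjusted p = 0.497 and 0.737). Between parental lines HNF4A was lower in HCC827 than in A549 (log2 difference -1.21, 2.31-fold, adjusted p = 3.46e-05) and lower in NCI-H358 than in A549 (-1.17, 2.25-fold, adjusted p = 4.63e-05). The parental A549 arrays had the largest SD among all groups of the 5 factors (0.43). The A549 change passed without the third parental A549 array (-0.70, adjusted p = 0.00643), without the third mesenchymal A549 array (-0.62, adjusted p = 0.0259) and without the third mesenchymal HCC827 array (adjusted p = 0.0373).

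**Figure D2:**
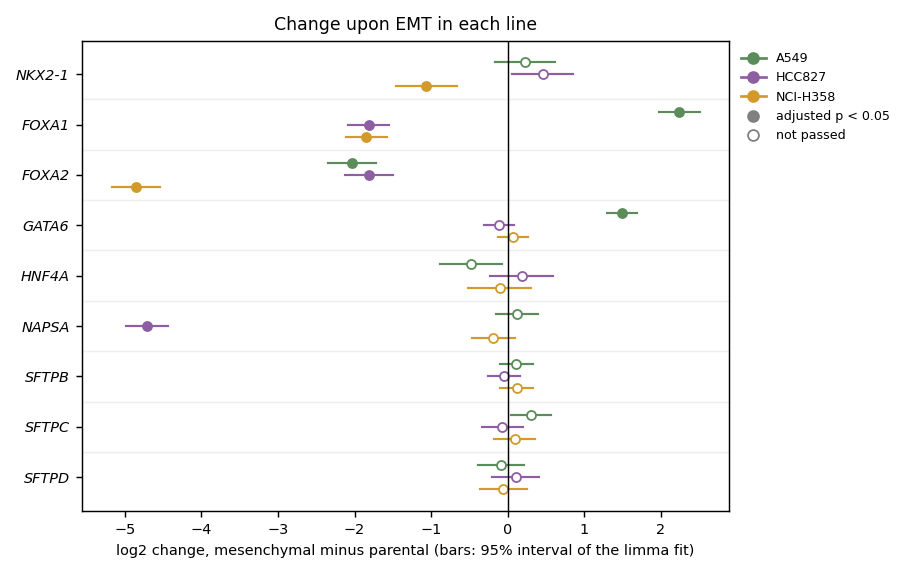
Log2 change of each lineage gene, mesenchymal minus parental, in A549 (green), HCC827 (purple) and NCI-H358 (orange), with bars for the 95% interval and filled points where the adjusted p was under 0.05. FOXA1 and GATA6 lie to the right in A549 only, FOXA2 lies to the left in all 3 lines, and NAPSA lies to the left in HCC827 only.

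NAPSA (Entrez 9476, probe set 223806_s_at) encodes napsin A, an aspartic protease of lamellar bodies that processes pro-surfactant protein B and serves as a marker of lung adenocarcinoma. Parental HCC827 arrays read 11.26, 10.76 and 10.60, and mesenchymal HCC827 arrays 6.31, 6.19 and 5.99. A549 arrays read 5.99, 5.80 and 5.94 in the parental and 5.88, 6.14 and 6.07 in the mesenchymal state. NCI-H358 arrays read 6.04, 6.01 and 6.00 in the parental and 5.76, 5.80 and 5.93 in the mesenchymal state. Parental HCC827 alone stood high, and the other 15 arrays lay between 5.76 and 6.31. NAPSA fell by 4.71 in HCC827 (SE 0.13, 26.2-fold lower, adjusted p = 1.59e-14), to a mean that differed from mesenchymal A549 by 0.13 (adjusted p = 0.412). The changes in A549 and NCI-H358 were 0.12 (95% interval -0.16 to 0.39, adjusted p = 0.511) and -0.19 (95% interval -0.46 to 0.09, adjusted p = 0.298). The change in HCC827 differed from that in A549 (difference of changes -4.83, adjusted p = 2.71e-12) and from that in NCI-H358 (4.53, NCI-H358 minus HCC827, adjusted p = 1.08e-11, with the HCC827 arrays shared by both). Since the parental A549 and NCI-H358 levels lay in the band that mesenchymal HCC827 fell to, these differences largely restate that parental HCC827 alone was high. NAPSA has a closely similar pseudogene copy, NAPSB, and the probe set's suffix marks it as matching more than 1 transcript, so signal from such a copy was not separated.

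In HCC827, where NAPSA fell, the NKX2-1 change was 0.46 and did not pass. In parental NCI-H358, where NKX2-1 was 30.7-fold above A549, the NAPSA level differed from that of A549 by 0.11 (adjusted p = 0.523). The part of NKX2-1 in the NAPSA level was not tested. A single bulk value per culture cannot tell fewer expressing cells from less RNA per cell.

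The 3 surfactant genes among the 9 showed little on these arrays. SFTPB (Entrez 6439, probe set 209810_at), whose product is needed for surfactant films, lay between 5.46 and 5.94 over the 18 arrays, with a median of 5.76. SFTPC (Entrez 6440, probe set 215454_x_at), the product most specific to alveolar type 2 cells, lay between 6.30 and 6.86, on a probe set whose suffix marks possible cross-hybridization. SFTPD (Entrez 6441, probe set 214199_at), a collectin of airway defence, lay between 3.81 and 4.63. All neighbouring groups overlapped in each of the 3 genes. Across the 3 genes and 3 lines the changes ran from -0.089 to 0.31, with 95% intervals that stayed between -0.39 and 0.57, and the smallest adjusted p was 0.0596, for SFTPC in A549. That change passed without the third parental A549 array (0.42, adjusted p = 0.0171), the first mesenchymal A549 array (0.37, adjusted p = 0.0444) or the third mesenchymal NCI-H358 array (adjusted p = 0.0477). The only difference between lines to pass was in SFTPB, lower in parental NCI-H358 than in parental HCC827 (log2 difference -0.27, adjusted p = 0.0332). The table holds no detection calls, so these values do not show whether the surfactant mRNAs were present at low level or absent. SFTPA2, a surfactant gene outside the 9 that was named after its values were seen, fell in HCC827 (change -0.91, adjusted p = 0.00214). Its HCC827 means were 5.06 ± 0.59 (parental) and 4.15 ± 0.25 (mesenchymal), and it passed in no other line. The parental HCC827 arrays read 5.72, 4.85 and 4.60, the first being the highest, and the mesenchymal ones 4.33, 4.24 and 3.87. Of the markers of lung epithelium, NKX2-1 stood high in HCC827 and NCI-H358 and NAPSA in parental HCC827, and neither did in A549. The secretory airway markers SCGB1A1 and SCGB3A2, also named after their values were seen, read at most 4.06 and 4.44 on any array and passed in no line.

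Counted over all 9 genes, the parental lines differed in 6 genes between HCC827 and A549, in 4 between NCI-H358 and A549 and in 6 between NCI-H358 and HCC827, where 57.1%, 57.9% and 52.6% of all genes differed. The mesenchymal lines differed in 5, 4 and 5 of the 9 genes, where 56.6%, 58.8% and 52.6% of all genes differed. The change itself differed in 3 of 9 genes between HCC827 and A549, in 4 between NCI-H358 and A549 and in 3 between NCI-H358 and HCC827, where 42.2%, 42.8% and 37.9% of all genes did. These comparisons share groups of arrays with each other, and the lineage genes' shares did not stand far from those of all genes.

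RefSeq promoter windows (GRCh38.p14) were available for 7 of the 9 genes, and the 250 bases before the start were searched on both strands for the core letters bound by the factors among them: CAAGTG or CACTTG for NKX2-1, TGTTTNC or GNAAACA for forkhead factors, AGATAA or TTATCT for GATA factors, and CAAAGTCCA or TGGACTTTG for HNF4A. Of 35116 windows in the table, 9.50% held the first, 15.5% the second, 9.17% the third and 0.325% the last. The 3 windows printed here were picked because NKX2-1 had the widest spread of group means, FOXA1 changed in opposite directions between lines, each of their windows holds letters of the other's factor class, and NAPSA had the largest fall of the 9 genes in HCC827. Capitals mark the matches, and the NAPSA window has none.
NKX2-1, inner start, chr14:36519557-36519806, minus strand: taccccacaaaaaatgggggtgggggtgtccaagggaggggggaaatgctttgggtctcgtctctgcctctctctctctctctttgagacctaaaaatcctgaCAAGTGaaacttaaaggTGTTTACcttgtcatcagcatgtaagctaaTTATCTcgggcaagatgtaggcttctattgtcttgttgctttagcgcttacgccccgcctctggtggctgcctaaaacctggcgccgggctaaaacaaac
FOXA1, chr14:37595250-37595499, minus strand: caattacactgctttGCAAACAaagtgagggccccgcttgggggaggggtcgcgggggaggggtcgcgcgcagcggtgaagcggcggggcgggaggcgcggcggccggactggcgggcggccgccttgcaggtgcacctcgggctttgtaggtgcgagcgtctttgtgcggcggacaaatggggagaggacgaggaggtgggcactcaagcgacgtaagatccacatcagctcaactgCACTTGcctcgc
NAPSA, second start, chr19:50365640-50365889, minus strand: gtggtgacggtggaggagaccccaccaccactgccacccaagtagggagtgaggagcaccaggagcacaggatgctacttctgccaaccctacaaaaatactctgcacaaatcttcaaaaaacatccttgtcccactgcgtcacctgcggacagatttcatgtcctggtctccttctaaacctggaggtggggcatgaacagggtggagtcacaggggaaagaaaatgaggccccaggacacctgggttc
The NKX2-1 window held CAAGTG at bases 147 to 142 before the start, TGTTTAC at bases 130 to 124 and TTATCT at bases 100 to 95, letters of the NKX2, forkhead and GATA classes in turn. The FOXA1 window held GCAAACA at bases 235 to 229 and CACTTG at bases 12 to 7. Elsewhere the outer NKX2-1 start and 1 SFTPB start held a forkhead match, 1 HNF4A start held AGATAA, and the GATA6, SFTPD and NAPSA windows held none of the 4 sets of letters. A match describes the letters only. Sites with other letters were not searched, so no match says nothing about binding within or beyond these windows.

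Other genes of alveolar type 2 cells were followed through a list of 14, of which 13 were in the table. In A549 3 rose and 5 fell, in HCC827 3 rose and 8 fell, and in NCI-H358 1 rose and 4 fell, with median changes of -0.00062, -0.30 and -0.085. Among all genes 16.6% rose and 26.8% fell in A549, 20.8% rose and 25.0% fell in HCC827, and 21.5% rose and 19.8% fell in NCI-H358. SFTA2, a secreted surfactant-associated protein, was highest in parental HCC827, as NAPSA was. Its parental HCC827 arrays read 12.32, 12.15 and 12.04 and its mesenchymal HCC827 arrays 6.55, 5.87 and 6.12, a change of -5.99 (SE 0.14, adjusted p = 2.04e-15). In A549 and NCI-H358 all SFTA2 group means lay between 3.22 and 3.34. Mesenchymal HCC827 kept an SFTA2 mean of 6.18, well above that range, whereas its NAPSA mean was 6.16, beside 6.03 in mesenchymal A549. LAMP3, a lamellar body membrane protein, followed the directions of FOXA1: it rose by 1.38 in A549 (adjusted p = 9.15e-06), and its fall had a change of -1.64 in HCC827 and of -2.50 in NCI-H358. CA2, a carbonic anhydrase, rose by 3.54 in A549 and by 1.02 in NCI-H358, with a change of 0.07 in HCC827 (adjusted p = 0.689). LPCAT1, the acyltransferase that makes surfactant lipid, which falls outside the naming rule and was picked after its values were seen, fell in all 3 lines (changes of -0.37, -2.15 and -1.70). FASN, the fatty acid synthase that feeds lipid synthesis and was picked in the same way, also fell in all 3 (changes of -0.77, -0.93 and -1.21). Not all moved down: ETV5, an ETS factor of type 2 cells, rose by 0.56 in A549 and by 1.16 in HCC827, and ABCA3, the lipid transporter of lamellar bodies, rose by 0.60 in HCC827 and had a change of -0.34 in A549, both also named after their values were seen.

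**Figure D3:**
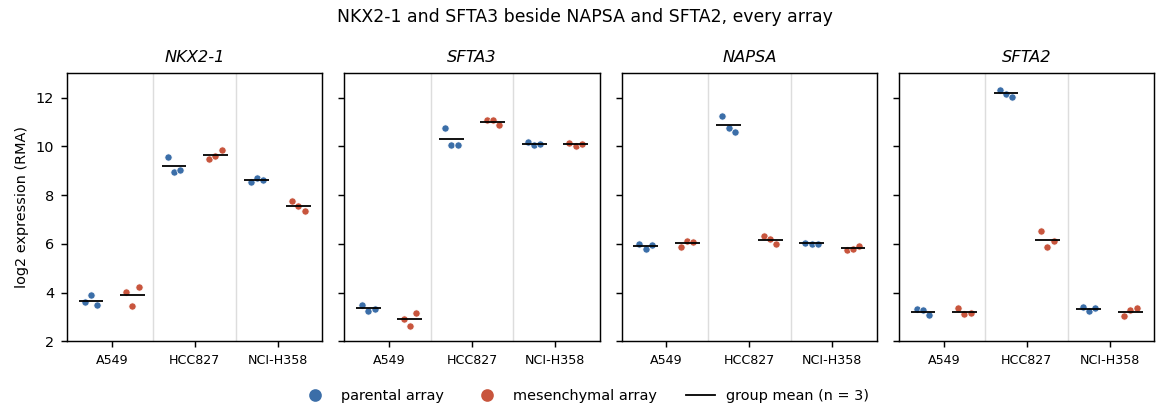
Log2 expression on every array of NKX2-1, its neighbour SFTA3, NAPSA and SFTA2, with parental arrays in blue, mesenchymal arrays in red and the mean of 3 arrays as a bar. NKX2-1 and SFTA3 are low in both A549 groups and high in the other 4, whereas NAPSA is high in parental HCC827 only. SFTA2 is highest in parental HCC827 and stays above A549 and NCI-H358 in mesenchymal HCC827.

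Among 8 genes of alveolar type 1 cells, the flat cells of gas exchange, 2 rose and 1 fell in A549, 3 rose and 2 fell in HCC827, and 1 rose and 3 fell in NCI-H358. The shares of all genes that rose and fell were 16.6% and 26.8%, 20.8% and 25.0%, and 21.5% and 19.8% in these lines. HOPX, a homeodomain cofactor, fell by 5.22 in NCI-H358 cells, from 9.05 ± 0.24 to 3.82 ± 0.071 (SE 0.17, adjusted p = 1.67e-13), and its change in HCC827 was -1.22 (adjusted p = 9.77e-06). Other genes of the list moved in both directions. RTKN2 rose by 2.06 in HCC827 and by 1.66 in NCI-H358. EMP2, a membrane protein, and PDPN, a surface glycoprotein, rose by 2.01 and 1.25 in HCC827. CAV1 fell in A549 and HCC827 (changes of -1.61 and -1.70). EMP2 and CLIC5 rose in A549 (changes of 0.65 and 0.33) and fell in NCI-H358 (changes of -1.64 and -0.51). RTKN2, EMP2, PDPN, CAV1 and CLIC5 were named after their values were seen. Among 8 airway genes, TP63, the basal cell factor, was the only one to pass in any line. It rose by 1.81 in A549 (adjusted p = 3.55e-09) and fell by 4.98 in NCI-H358 cells, from 10.02 ± 0.13 to 5.04 ± 0.069 (adjusted p = 1.1e-14), with a change of -0.27 in HCC827 (adjusted p = 0.102).

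Of 24 other foregut and epithelial transcription factors, 4 rose and 7 fell in A549, 4 rose and 9 fell in HCC827, and 4 rose and 7 fell in NCI-H358. Among all genes, 16.6%, 20.8% and 21.5% rose and 26.8%, 25.0% and 19.8% fell in these lines. ELF3, an epithelial ETS factor, fell in all 3 lines like FOXA2, with changes of -3.06, -5.37 and -3.94. EHF, its relative, fell in HCC827 (change -5.09) and NCI-H358 (change -5.39), and its change in A549 was -0.23 (adjusted p = 0.225). SOX2, the factor of the proximal airway and foregut, fell in A549 (change -4.14, adjusted p = 3.41e-09) and in HCC827 (change -5.79, adjusted p = 3.13e-11), whereas its means in NCI-H358 were 10.98 ± 0.16 and 10.87 ± 0.02 (adjusted p = 0.818). NR5A2, a nuclear receptor of gut and pancreas, had changes of -2.54, -4.86 and -0.92 and fell in each line. Some factors went the other way, named here after their values were seen: FOXP1, a forkhead factor of lung development, rose by 3.39, 1.78 and 0.82 in A549, HCC827 and NCI-H358, and SOX9, a factor of the distal lung bud, rose by 2.63 in HCC827 and by 0.47 in A549.

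A list of 24 liver and gut products held many known targets of HNF4A and the FOXA factors. Of these 24, 1 rose and 10 fell in A549, 1 rose and 10 fell in HCC827, and 2 rose and 2 fell in NCI-H358. In the same order 16.6%, 20.8% and 21.5% of all genes rose and 26.8%, 25.0% and 19.8% fell. The fibrinogen chains FGB, FGG and FGA fell in A549, with changes of -4.29, -3.71 and -2.49, and in HCC827, with changes of -6.81, -4.70 and -0.64. In NCI-H358 FGB had means of 3.93 ± 0.25 and 3.86 ± 0.062, and FGG rose by 0.50 (adjusted p = 0.0194) from a mean of 3.97. TM4SF4, a tetraspanin-like protein of liver and intestine, fell in A549 (change -3.78) and HCC827 (change -1.52), and its NCI-H358 change was -0.15 (adjusted p = 0.432). Parental FGB means were 11.05 ± 0.21 in HCC827 and 8.69 ± 0.30 in A549, while parental HNF4A was lower in HCC827 than in A549. The parental HCC827 mean of HNF4A, 3.88, lay below the lower quartile of the arrays, and a link between the genes was not tested.

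**Figure D4:**
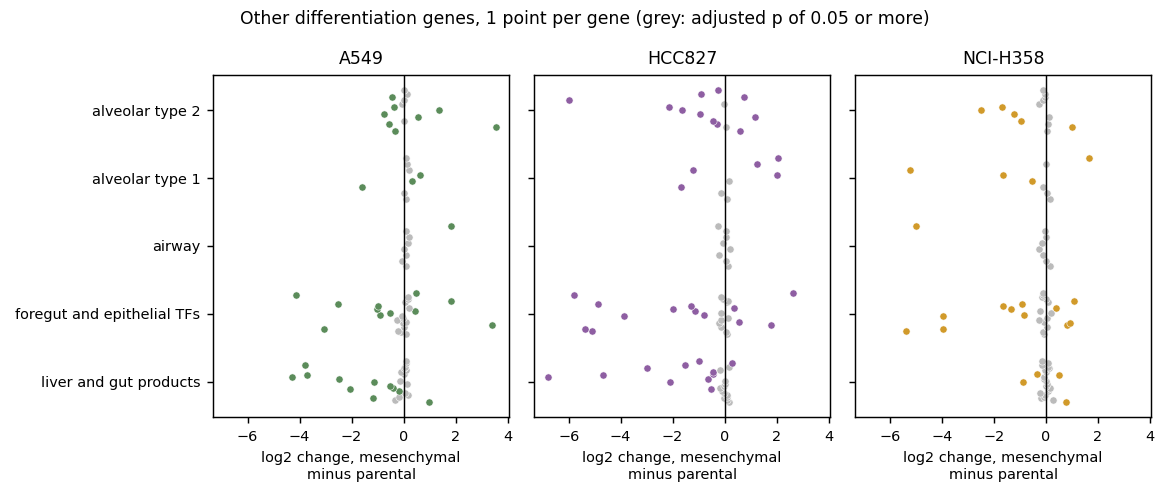
Log2 change, mesenchymal minus parental, of every measured gene of the 5 differentiation lists in A549, HCC827 and NCI-H358, with 1 point per gene and grey for an adjusted p of 0.05 or more. Most genes lie near 0, and the point furthest to the left is FGB in A549 (-4.29) and in HCC827 (-6.81) and EHF in NCI-H358 (-5.39).

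Markers of cells other than epithelium were read beside these changes. Of 10 such genes, 3 rose and 1 fell in A549, 5 rose and 0 fell in HCC827, and 3 rose and 0 fell in NCI-H358. The shares of all genes that rose were 16.6%, 20.8% and 21.5%, and those that fell were 26.8%, 25.0% and 19.8%. Of the 6 markers of leukocytes, endothelium and red cells, all named here after their values were seen, PTPRC, CD3E, CDH5 and HBB passed in no line, the endothelial marker PECAM1 rose by 0.41 in HCC827 (adjusted p = 0.024), and the myeloid marker CD14 fell by 1.36 in A549 (adjusted p = 2.68e-06). The matrix genes COL1A1, which rose by 3.42, 4.41 and 3.65, and LUM, which rose by 2.15, 3.93 and 2.15, are fibroblast markers that EMT can also raise. The other fibroblast markers, DCN and PDGFRB, were named after their values were seen. DCN rose in A549 and HCC827 (changes of 0.45 and 0.56) and PDGFRB in HCC827 and NCI-H358 (changes of 0.88 and 0.71). The mean log2 level of the 10 genes per array went from 5.08 to 5.21 in parental and from 5.61 to 5.71 in mesenchymal A549, from 5.08 to 5.22 and from 6.14 to 6.31 in HCC827, and from 5.66 to 5.80 and from 6.28 to 6.40 in NCI-H358. All arrays were of cultures of established tumour lines, and whether any other cells were present in them was not tested.

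The genes whose 6 group means followed those of a lineage gene most closely were taken from 9054 genes that spanned at least 1 on the log2 scale. These are descriptions over 6 means of the same 18 arrays. For NKX2-1 they were SMARCA4 (r = 0.995), a chromatin remodelling ATPase, MUM1 (0.993) and SLFN12 (0.992). For FOXA1 they were SEL1L3 (0.985), CNN2 (0.978) and ATL1 (0.961), and for FOXA2 they were NPR2 (0.985), SYNGR2 (0.983) and SYPL1 (0.975). GATA6 was most like LINC00623 (0.967), the growth factor BMP2 (0.954) and the metallothionein MT1H (0.948). HNF4A was most like the gastric secretory gene TFF1 (0.997), B4GALNT1 (0.997) and API5 (0.994). NAPSA was most like KRT20 (0.999), DSCAML1 (0.999) and LCN2 (0.999), all of which, like it, had 1 group far above the other 5.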

How the data were processed

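Total RNA of 18 cultures was hybridized to Affymetrix U133 Plus 2.0 arrays. The deposited table holds log2 expression values that the authors made with RMA, at 1 probe set per gene for 19849 genes. How that probe set was chosen is not given in the sources used here, and single probes and detection calls were not analysed here, so the precision rests on 3 arrays per group and probe sets of low level carry an unmeasured share of background. RMA also compresses differences between low and high levels. The values were used as deposited.

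Groups came from the sample labels. All 18 arrays entered 1 limma fit (version 3.58.1, R 4.3.3) of 6 groups with eBayes, with two-sided tests and Benjamini-Hochberg adjustment over all genes in each contrast. The contrasts were EMT against Parental in each line, lines against each other within a state, and the difference of 2 changes, and 95% intervals came from the same fit. With 3 arrays against 3, an exact permutation test cannot go below 0.1, so the separation of groups is given as overlap only. The labels give no replicate numbers that pair arrays.

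The 9 genes and all gene lists were chosen with earlier results of these data known. From each list at most 4 genes are named: those past the study thresholds in the most lines, then by absolute mean change, or the 2 with the largest mean change where none passed. The 3 genes most like a member were ranked by Pearson's correlation of 6 group means. Genes named outside these rules, other than in the EMT check, whose genes are all named, were chosen after their values were seen. Promoter windows and gene order came from RefSeq tables (GRCh38.p14), matched by symbol.

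The fit was tested on simulated data with 19849 genes, where it recovered 50, 50 and 49 of 50 genes changed 2-fold in A549, HCC827 and NCI-H358, and 34, 34 and 39 of 50 changed 1.5-fold. False calls numbered 11, 5 and 8. The noise was independent and normal, the changes were alike in every line, and far fewer genes changed than were called in the real data. Recovery in the real fit can therefore differ. Alternatives were a separate fit per line, an intensity trend, a robust prior, a filter on dim probe sets (which kept 10003 genes and 6 of the 9 members), centring of arrays, array weights, an unmoderated equal-variance test per gene, other thresholds and leaving out each of the 18 arrays.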

Additional observations from a re-analysis of the deposited data

Results flagged for a closer look

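Of the 9 genes, 5 had a difference of changes that passed in the limma fit for any pair of lines. Taken pair by pair, 42.2% (HCC827 with A549), 42.8% (NCI-H358 with A549) and 37.9% (NCI-H358 with HCC827) of all genes passed. The share of all genes passing for any pair was not computed, so the count of 5 does not set the lineage genes apart. Each pair of lines below shares its arrays with the other pairs, and the length of TGFβ culture differed between A549 and the others in the methods.

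NKX2-1 changed by -1.29 in NCI-H358 relative to A549 (SE 0.26) and by -1.52 relative to HCC827. All A549 arrays lay below the lower quartile, so little fall could have been seen in A549. FOXA1 changed by -4.06 in HCC827 and by -4.09 in NCI-H358 relative to A549 (SE 0.18 for both), and all 3 mesenchymal A549 arrays were above the parental ones while all mesenchymal arrays of the other lines were below theirs. FOXA2 changed by -2.83 in NCI-H358 relative to A549 and by -3.05 relative to HCC827 (SE 0.21 for both), with a fall in every line. Mesenchymal HCC827 lay below the lower quartile, which limits the fall that could be seen in HCC827. GATA6 changed by -1.62 in HCC827 and by -1.43 in NCI-H358 relative to A549 (SE 0.13 for both). NAPSA changed by -4.83 in HCC827 relative to A549, and the change in NCI-H358 exceeded that in HCC827 by 4.53 (SE 0.18 for both), and A549 and NCI-H358 had no NAPSA level above that of mesenchymal HCC827 to lose.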

How the results depend on the processing

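The 54 changes and differences of changes of the 9 genes were recomputed in 1386 comparisons with an alternative. No called value lost its call or turned its direction, and 26 comparisons gained a call. Signs turned in 26 comparisons, all of values without a call. The gains with all arrays were NKX2-1 in HCC827 (adjusted p = 0.0342 with an intensity trend, 0.0367 without dim probe sets, 0.0248 with centred arrays, 0.0103 with array weights), HNF4A in A549 (0.0398 with the trend, 0.0272 with weights), SFTPC in A549 (0.0368 without dim probe sets, 0.0344 centred, 0.01004 with weights), the HNF4A difference between HCC827 and A549 (0.0459 with the trend) and the NAPSA difference between NCI-H358 and A549 (0.0451 with separate fits, 0.0330 with weights). With 1 array left out, the HNF4A difference between HCC827 and A549 passed without the third parental A549 array (0.88), the third mesenchymal A549 array (0.80) or the second mesenchymal HCC827 array (0.76), and the SFTPC difference without the third parental A549 array (-0.49).

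The number of genes higher in A549 was 3 in place of 2 without dim probe sets, with centred arrays and with array weights, and 2 to 3 with 1 array left out. The number lower in A549 was 2 in place of 1 with an intensity trend and with array weights, and 1 to 2 with 1 array left out (2 without parental A549 replicate 3, mesenchymal A549 replicate 3 or mesenchymal HCC827 replicate 3). The number higher in HCC827 was 1 in place of 0 with the trend, without dim probe sets, with centred arrays and with weights, and 0 to 1 with 1 array left out (1 without parental HCC827 replicate 1, mesenchymal HCC827 replicate 1 or mesenchymal A549 replicate 2 or 3). The number past the study thresholds was 0 in HCC827 and 0 in NCI-H358 with an unmoderated test per gene (equal variances, each line alone), in place of 1 each, and with 2-fold in place of 5-fold it was 3, 3 and 2 in the order A549, HCC827 and NCI-H358. The share of all genes past the 2-fold pair was not computed, and the shares given for the study thresholds hold for 5-fold only. The unmoderated test gave 3 members an adjusted p under 0.05 in each line. The causes of these shifts were not tested. The genes most like NAPSA, FOXA1, FOXA2 and NKX2-1 shared 2, 2, 2 and 2 of 3 names over 18 arrays, those of GATA6 all 3, and those of HNF4A 0. Low probe sets (HNF4A, SFTPB and SFTPD lay below the median of all) limit what can be said of them.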
